A study of Rattus norvegicus with 9 samples.

Results

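Adipokines are signalling proteins that fat cells release, and 7 of their genes were followed in the tibia of each rat: Adipoq, Lep, Retn, Cfd, Rbp4, Rarres2 and Nampt. The genes were taken by symbol, and all 7 were found among the 22589 genes that the authors' tables list and were among the 14520 genes with enough counts to be tested. RNA-seq had been done on left tibias of female Sprague-Dawley rats, bought at 9 weeks of age and operated on after 1 week of feeding, with 3 rats sequenced in each of 3 groups. RE/Ovx rats lost both ovaries and then climbed a ladder with weights on the tail for 12 weeks from the 13th week after the operation, 5 days a week, after 2 weeks of adaptive training. NE/Ovx rats lost both ovaries and did not exercise. Sham rats kept their ovaries and lost only a small piece of the fat next to the ovary, so the sham operation also touched a fat depot. None of the 3 groups combines exercise with intact ovaries. The bones were freed of skin, muscle, ligament and tendon, and a library holds the RNA of bone and marrow together.

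Adiponectin (Adipoq), leptin (Lep) and resistin (Retn) are hormones of fat cells that act on insulin sensitivity, appetite and inflammation. Complement factor D (Cfd, also called adipsin) is the serine protease that starts the alternative complement pathway, Rbp4 carries retinol in blood, chemerin (Rarres2) attracts immune cells and promotes fat cell differentiation, and Nampt makes a precursor of NAD in nearly every cell type. Fat cells of the bone marrow become more frequent with age and after loss of ovarian estrogen, and they release several of these proteins. In whole bone, fewer cells of a type and less RNA per cell cannot be told apart.

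Of the 7 genes, 3 passed the test in both comparisons with Sham rats: Adipoq, Lep and Retn. The 250 bases before the annotated start of each are shown because these are the genes with a call in both. They are from the RefSeq annotation of the rat assembly GRCr8 in the direction of the gene, whereas the counts rest on the build Rnor_6.0. Capitals mark matches to 5 motifs that were searched on both strands: the C/EBP palindrome TTGCGCAA, the nuclear receptor hexamer AGGTCA, the TATA box TATAAA, the GC box GGGCGG and the CCAAT box, whose name gives its letters.
Adipoq, chr11:91240170-91240419, minus strand: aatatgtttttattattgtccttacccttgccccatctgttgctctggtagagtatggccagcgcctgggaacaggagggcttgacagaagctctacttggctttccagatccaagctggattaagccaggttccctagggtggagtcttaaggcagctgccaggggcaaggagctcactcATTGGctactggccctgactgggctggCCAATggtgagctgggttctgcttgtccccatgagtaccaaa
Lep, chr4:58626288-58626537, plus strand: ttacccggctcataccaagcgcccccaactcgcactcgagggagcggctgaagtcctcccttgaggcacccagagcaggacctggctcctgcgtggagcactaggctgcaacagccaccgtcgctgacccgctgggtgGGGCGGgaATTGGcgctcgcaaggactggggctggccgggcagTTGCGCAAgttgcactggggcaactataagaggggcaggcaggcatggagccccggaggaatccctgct
Retn, chr12:6508524-6508773, plus strand: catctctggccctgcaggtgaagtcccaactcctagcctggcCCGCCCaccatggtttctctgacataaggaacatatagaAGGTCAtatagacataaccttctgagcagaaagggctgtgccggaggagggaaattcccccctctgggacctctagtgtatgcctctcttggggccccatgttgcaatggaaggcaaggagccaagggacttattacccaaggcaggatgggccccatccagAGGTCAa
In the Lep sequence TTGCGCAA lies at positions -69 to -62 before the start, and 0.140% of 33469 rat promoter windows of this length hold it. A GC box lies at -112 to -107 and a CCAAT box on the other strand at -104 to -100. The Adipoq sequence has CCAAT at -42 to -38, and on the other strand at -69 to -65, a motif found in 34.0% of the windows. The Retn sequence has AGGTCA at -169 to -164 and at -7 to -2, a hexamer found in 14.1% of the windows, and a GC box on the other strand at -208 to -203. GC boxes were in 30.5% of the windows. TATAAA, in 12.9% of the windows, was not among the letters of these 3 sequences. Of the other members, Cfd, Rbp4 and Rarres2 had a promoter in the RefSeq table as well, and these held some of the same motifs. Rarres2 had AGGTCA at -143 to -138, Rbp4 had TATAAA at -50 to -45 and GC boxes, and Cfd had a GC box on the other strand at -162 to -157.

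The counts summed to between 12967456 and 14946389 in the RE/Ovx rats, 13568808 and 16671533 in the NE/Ovx rats and 12297992 and 15123988 in the Sham rats. No pair of libraries agreed within sampling noise. CPM stands for the count scaled by the TMM-adjusted size of its library, and FPKM is the value that the authors deposited, which takes gene length into account and is used to compare genes. Differences were tested with edgeR's quasi-likelihood test on the counts of all 9 rats, and adjusted p is by Benjamini and Hochberg over all tested genes with 0.05 as the threshold. Each rat gave 1 library, and the p-values rest on the spread between the rats of a group. The fat cell label was checked against 7 other fat cell genes (Plin1, Plin4, Cidec, Fabp4, Aqp7, Gpd1 and Lipe), each of which had counts in all 9 rats, and whose summed level was 344 to 492 CPM in RE/Ovx, 265 to 387 CPM in NE/Ovx and 72.9 to 167 CPM in Sham rats. Of 8 brown fat markers, Ucp1 and Elovl3 had no count in any rat, while Cidea had 104, 72 and 14 counts and Cox8b, which muscle also expresses, 331, 838 and 677 counts over the RE/Ovx, NE/Ovx and Sham rats. Of 8 liver markers, Fga and Fgb had no count, and the 2 that could be tested were Serpina1, with 423, 359 and 146 counts over the 3 groups, and Apoa1, with 22, 35 and 23 counts.

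All 7 adipokine genes were transcribed in every tibia. By FPKM, Cfd had the highest mean in each group, with 120 ± 6.48 in RE/Ovx, 93.9 ± 6.79 in NE/Ovx and 67.1 ± 19.6 in Sham rats (SD, n = 3 each). Lep had the lowest, with 1.42 ± 0.476 in RE/Ovx, 0.883 ± 0.246 in NE/Ovx and 0.153 ± 0.110 FPKM in Sham rats. The order between them was not the same in the 3 groups. In RE/Ovx rats Cfd was followed by Adipoq (62.8 ± 12.996), Retn (45.1 ± 5.46), Rbp4 (20.8 ± 3.64), Nampt (19.1 ± 2.11) and Rarres2 (11.3 ± 2.65 FPKM), with Rbp4 and Nampt closer than their spread. In NE/Ovx rats Adipoq (39.7 ± 6.81) and Retn (38.7 ± 7.26) were closer than their spread and stood above Nampt (23.0 ± 4.37), Rbp4 (14.4 ± 2.08) and Rarres2 (9.48 ± 0.570 FPKM). In Sham rats Nampt (20.7 ± 2.54) stood next to Cfd, ahead of Retn (11.7 ± 3.90), Adipoq (7.09 ± 5.04), Rbp4 (5.004 ± 2.44) and Rarres2 (4.66 ± 2.01 FPKM), and the last 3 were closer to each other than the spread of Adipoq.

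**Figure D1:**
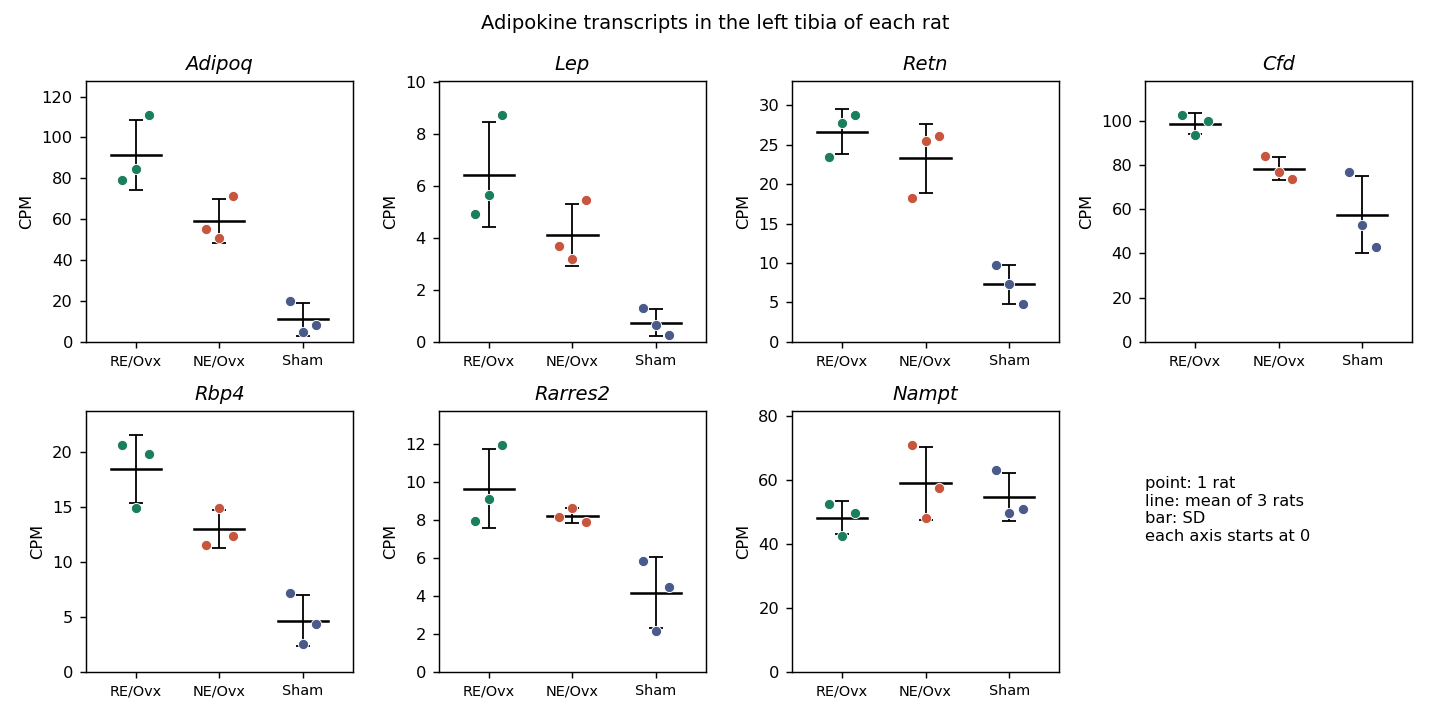
Level of each adipokine gene in CPM (vertical axes, each from 0) in the left tibia of each of 9 rats, with the groups RE/Ovx, NE/Ovx and Sham from left to right. Points are rats, lines are means of 3 rats and bars are SD. Adipoq, Lep, Retn, Rbp4 and Rarres2 do not overlap between either ovariectomized group and Sham rats, and Nampt overlaps between all groups.

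The first comparison, NE/Ovx against Sham, asks what loss of the ovaries did to these transcripts. Adipoq, Lep and Retn rose in NE/Ovx tibias, by 5.36-fold, 5.40-fold and 3.19-fold, and Rbp4, Rarres2, Cfd and Nampt did not pass the test. Thus 3 of 7 adipokine genes were called higher, against 1.03% of all tested genes, and 0 of 7 were called lower, against 0.2%. The median log2 fold change of the 7 genes was 1.46, and that of all genes was 0.00. For 5 of the 7 genes every NE/Ovx rat was above every Sham rat, against 13.9% of all genes.

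Adiponectin is made almost only by fat cells and raises insulin sensitivity. Adipoq was at 55.4, 50.5 and 71.3 CPM in NE/Ovx rats 6, 8 and 9, against 19.8, 4.84 and 7.998 CPM in Sham rats 7, 8 and 12. The lowest NE/Ovx rat was thus above the highest Sham rat, and Sham rat 7 stood above the other Sham rats. The log2 fold change was 2.42 (SE 0.40, adjusted p = 0.0265).

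Leptin reports fat stores to the brain. Lep was at 3.67, 3.18 and 5.45 CPM in the same NE/Ovx rats, against 1.31, 0.645 and 0.250 CPM in the Sham rats. These levels rest on 50, 46 and 90 counts in NE/Ovx rats and on 19, 8 and 3 counts in Sham rats, whose exact 95% Poisson intervals of 11.4 to 29.7, 3.45 to 15.8 and 0.619 to 8.77 cover counting error only. The groups did not overlap, and the Sham rats again differed among themselves. The log2 fold change was 2.43 (SE 0.48, adjusted p = 0.0427).

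Resistin counters insulin action in rodents, where fat cells are its main source. Retn was at 18.2, 25.5 and 26.1 CPM in NE/Ovx rats, against 9.70, 7.33 and 4.75 CPM in Sham rats, with a log2 fold change of 1.67 (SE 0.24, adjusted p = 0.0213). It had the smallest p of the 7 genes. All 3 calls depended on single rats: 0 of 7 genes passed without NE/Ovx rat 8 or without NE/Ovx rat 9, 1 passed without Sham rat 12, and Lep missed the threshold when any of the 6 rats was left out (adjusted p up to 0.108). The calls over all genes fell as well: they numbered 178 with all rats, 9 with NE/Ovx rat 8 left out, 10 with NE/Ovx rat 9 left out and 40 with Sham rat 12 left out. In these fits of 8 rats the log2 fold change stayed between 2.07 and 3.19 for Adipoq, 2.03 and 3.16 for Lep, and 1.43 and 1.93 for Retn. The highest value of each of these 3 genes was that without Sham rat 7. For Lep, limma gave 0.70 on log2(FPKM + 1) and 2.02 on log2(FPKM + 0.1). Its means were 0.883 FPKM in NE/Ovx and 0.153 FPKM in Sham rats, where adding 1 shrinks the fold change.

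The retinol carrier Rbp4 is made in liver and fat. Rbp4 was at 11.6, 14.9 and 12.4 CPM in NE/Ovx rats, against 7.15, 2.50 and 4.33 CPM in Sham rats. The groups did not overlap, but the log2 fold change of 1.46 (SE 0.31) had an adjusted p of 0.0530, and it passed without Sham rat 7 (adjusted p = 0.0283). Chemerin is secreted by fat and liver and is cut to its active form outside the cell. Rarres2 was at 8.15, 8.65 and 7.88 CPM in NE/Ovx rats, against 5.85, 2.18 and 4.50 CPM in Sham rats, also without overlap (log2 fold change 0.97, SE 0.31, adjusted p = 0.125). DESeq2 on the same counts called these 2 genes as well, at adjusted p of 3.32e-04 for Rbp4 and 0.0401 for Rarres2.

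Cfd and Nampt differed least. Cfd, whose product cleaves factor B, was at 84.2, 77.1 and 73.9 CPM in NE/Ovx rats, against 76.9, 53.0 and 42.8 CPM in Sham rats. Sham rat 7 lay within the NE/Ovx range, and the log2 fold change of 0.44 (95% interval 0.05 to 0.83) had an adjusted p of 0.196. Nampt was at 70.8, 48.1 and 57.6 CPM in NE/Ovx rats, against 63.1, 49.5 and 50.9 CPM in Sham rats, with overlapping groups and a log2 fold change of 0.11 (95% interval -0.23 to 0.45, adjusted p = 0.728). Without NE/Ovx rat 6 the estimate for Nampt was -0.045. Sham rat 7 had the highest level among the Sham rats for all 7 genes, and the ratio of the highest to the lowest Sham rat was 4.10 for Adipoq, 5.23 for Lep, 2.86 for Rbp4, 2.69 for Rarres2, 2.04 for Retn, 1.80 for Cfd and 1.28 for Nampt.

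The second comparison, RE/Ovx against NE/Ovx, asks what resistance exercise did after ovariectomy. No adipokine gene passed the test: 0 of 7 were called, and 0% of all genes were called in either direction. By unadjusted p under 0.05 the count was also 0 of 7, and DESeq2 called 0 of 7. Of all genes, 1.71% were higher and 3.57% lower at that unadjusted p, and DESeq2 called 5 genes. The estimates for 6 of the 7 adipokine genes were above 0, with a median log2 fold change of 0.33 against 0.01 over all genes. Mean Adipoq, Lep, Retn, Cfd, Rbp4 and Rarres2 in exercised rats were above those of NE/Ovx rats.

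Adipoq was at 79.1, 84.4 and 111 CPM in RE/Ovx rats 3, 5 and 8, against the 55.4, 50.5 and 71.3 CPM of NE/Ovx rats 6, 8 and 9. Cfd was at 103, 93.5 and 99.96 CPM in the RE/Ovx rats, against 84.2, 77.1 and 73.9 CPM in the NE/Ovx rats. For these 2 genes, of 7, every RE/Ovx rat was above every NE/Ovx rat, which held for 4.75% of all genes. The log2 fold changes were 0.63 for Adipoq (95% interval -0.18 to 1.44, adjusted p = 0.965) and 0.33 for Cfd (95% interval -0.06 to 0.72, adjusted p = 0.948).

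The other members overlapped between RE/Ovx and NE/Ovx rats. Lep was at 4.91, 5.65 and 8.74 CPM in RE/Ovx rats, from 73, 74 and 136 counts, with a log2 fold change of 0.65 (95% interval -0.24 to 1.53, adjusted p = 0.968). Rbp4 was at 20.7, 14.9 and 19.9 CPM in RE/Ovx rats, with a log2 fold change of 0.51 (95% interval -0.12 to 1.14, adjusted p = 0.959). RE/Ovx rat 5 was within the NE/Ovx range for Rbp4. Retn at 23.4, 27.8 and 28.8 CPM and Rarres2 at 7.94, 9.09 and 11.9 CPM in RE/Ovx rats had log2 fold changes of 0.20 (95% interval -0.30 to 0.69) and 0.23 (95% interval -0.41 to 0.88). Nampt was the member with an estimate below 0, at 52.4, 42.5 and 49.6 CPM in RE/Ovx rats, with a log2 fold change of -0.29 (95% interval -0.63 to 0.05, adjusted p = 0.9504). For Adipoq and Lep these intervals reach to rises of over 1 log2 unit and to falls of 0.18 and 0.24.

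Skeletal muscle transcripts were also measured in these bones. The estimates of all 10 muscle genes were below 0 for RE/Ovx against NE/Ovx, with a median log2 fold change of -0.91. None of them passed the test, nor did any other gene. At unadjusted p under 0.05 in edgeR, 6 of 10 were lower, against 3.57% of all genes. For 8 of the 10 muscle genes every RE/Ovx rat was below every NE/Ovx rat, as for 993 of all 14520 genes tested. These 10 genes differ widely in level. Most of their counts were of Ttn, with 220074, 414728 and 228043 over the RE/Ovx, NE/Ovx and Sham rats. The summed level of the muscle genes was 6422 to 9641 CPM in RE/Ovx, 13371 to 17090 CPM in NE/Ovx and 5073 to 15292 CPM in Sham rats. Their part in the adipokine values was not tested.

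In the third comparison, RE/Ovx against Sham, 6 of 7 adipokine genes rose, against 5% of all genes called higher, and 0 of 7 fell, against 3.06%. Adipoq rose 8.30-fold (log2 fold change 3.05, SE 0.40, adjusted p = 0.00723), Lep 8.46-fold (3.08, SE 0.47, adjusted p = 0.0113) and Retn 3.65-fold (1.87, SE 0.24, adjusted p = 0.00643). Rbp4 rose 3.93-fold (adjusted p = 0.0114), Rarres2 2.30-fold (adjusted p = 0.0409) and Cfd 1.71-fold (adjusted p = 0.0297). Every RE/Ovx rat was above every Sham rat for each of these 6 genes, against 14.9% of all genes. Nampt overlapped between the groups, with a log2 fold change of -0.18 (95% interval -0.52 to 0.16, adjusted p = 0.513). The median of the 7 genes was 1.87, against -0.01 over all genes. This comparison shares its Sham rats with the first and its RE/Ovx rats with the second, so it repeats part of their data. Adipoq, Lep and Retn passed when any of the 6 rats was left out. Rbp4 missed the threshold without RE/Ovx rat 8 (adjusted p = 0.0520), and Cfd and Rarres2 missed it when Sham rat 8, Sham rat 12, RE/Ovx rat 5 or RE/Ovx rat 8 was left out, where adjusted p reached 0.0979 and 0.152. Without RE/Ovx rat 8 the count was 3 of 7, and without Sham rat 8, Sham rat 12 or RE/Ovx rat 5 it was 4 of 7. Over all genes, 1171 were called with all rats, 103 without RE/Ovx rat 8, 103 without RE/Ovx rat 5, 847 without Sham rat 8 and 767 without Sham rat 12. Leaving out each rat, the log2 fold change lay between 2.70 and 3.83 for Adipoq, 2.68 and 3.81 for Lep and 1.64 and 2.13 for Retn, highest without Sham rat 7. For Lep, limma gave 1.05 on log2(FPKM + 1) and 2.63 on log2(FPKM + 0.1).

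**Figure D2:**
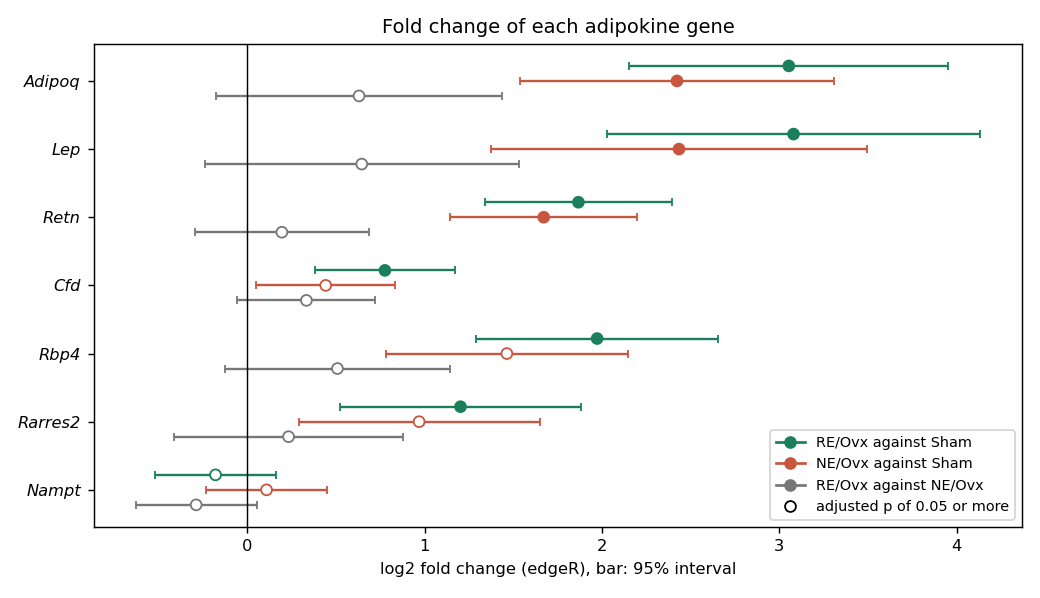
log2 fold change of each adipokine gene (horizontal axis) from edgeR with its 95% interval, for RE/Ovx against Sham (green), NE/Ovx against Sham (red) and RE/Ovx against NE/Ovx (grey), where filled points have an adjusted p under 0.05. Adipoq and Lep lie farthest to the right at 3.05 and 3.08 for RE/Ovx against Sham, the intervals for RE/Ovx against NE/Ovx all include 0, and Nampt lies at 0.11, -0.29 and -0.18 for NE/Ovx against Sham, RE/Ovx against NE/Ovx and RE/Ovx against Sham.

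The adipokine genes were next set against other genes of fat cells in the same rats. Of 7 reference fat cell genes, 3 rose in NE/Ovx against Sham and 6 in RE/Ovx against Sham, against 1.03% and 5% of all genes. The medians of the 7 were 1.38 and 1.61 on the log2 scale. Plin1, which coats the fat droplet, was at 70.7, 108 and 111 CPM in RE/Ovx, 46.9, 73.2 and 63.8 CPM in NE/Ovx and 9.97, 6.45 and 6.83 CPM in Sham rats. Its log2 fold change was 2.97 for NE/Ovx against Sham (adjusted p = 0.00387) and 3.63 for RE/Ovx against Sham (adjusted p = 3.35e-04). Aqp7, a glycerol channel, and Lipe, hormone-sensitive lipase, also rose in NE/Ovx rats, by 3.09 and 1.32 on the log2 scale (adjusted p = 0.0362 and 0.0120). Aqp7 had 2 counts in each of Sham rats 8 and 12. Cidec, which enlarges fat droplets, rose by 2.41 in RE/Ovx against Sham (adjusted p = 0.0166) and had 2.08 in NE/Ovx against Sham (adjusted p = 0.0572).

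The level of each adipokine gene relative to these genes was taken as its log2 CPM minus the mean log2 CPM of the 7 reference genes in the same rat. Cfd, Rarres2 and Nampt were lower relative to the fat cell genes in every ovariectomized rat than in every Sham rat. These fat cell genes were themselves higher in the ovariectomized rats. Their mean log2 CPM, centred on all rats, was 0.65 to 1.07 in RE/Ovx, 0.27 to 0.77 in NE/Ovx and -2.16 to -0.70 in Sham rats. A gene whose own level is unchanged therefore comes out lower on this scale. The share of all genes that do so was not counted. For Nampt the relative level was 0.14 ± 0.33 in RE/Ovx, 0.77 ± 0.49 in NE/Ovx and 2.65 ± 0.56 in Sham rats (SD, n = 3 each). For Cfd it was 1.18 ± 0.26 in RE/Ovx, 1.20 ± 0.35 in NE/Ovx and 2.70 ± 0.56 in Sham rats. For Rarres2 it was -2.17 ± 0.14 in RE/Ovx, -2.03 ± 0.27 in NE/Ovx and -1.11 ± 0.20 in Sham rats. Each of these 6 differences from Sham rats had p = 0.1 in a two-sided exact permutation test, the smallest p that 3 rats against 3 allow, and an adjusted p of 0.21 over the 21 tests run, so the design cannot bring them past 0.05. Their directions were the same with Plin1 alone as the reference, and Plin1 rose against Sham as well.

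Adipoq went the other way relative to the 7 genes, at 1.06 ± 0.15 in RE/Ovx, 0.78 ± 0.24 in NE/Ovx and 0.11 ± 0.31 in Sham rats (exact permutation p = 0.1 for each ovariectomized group against Sham), but with Plin1 alone as the reference the differences from Sham were -0.33 for RE/Ovx and -0.31 for NE/Ovx. The relative level of Lep overlapped between the groups, and its differences from Sham of 0.73 for RE/Ovx and 0.45 for NE/Ovx also turned negative with Plin1 alone. Retn was at -0.71 ± 0.06 in RE/Ovx, -0.57 ± 0.09 in NE/Ovx and -0.28 ± 0.70 in Sham rats, where Sham rat 8 lay well above the others. In that rat the reference genes had their lowest summed level, 72.9 CPM. Its Retn, at 7.33 CPM, lay between those of the other Sham rats. Relative Lep, Cfd and Nampt were also highest among the Sham rats in Sham rat 8. Rbp4 was at -1.24 ± 0.39 in RE/Ovx, -1.39 ± 0.24 in NE/Ovx and -0.97 ± 0.03 in Sham rats. Every NE/Ovx rat was below every Sham rat for Rbp4, and every RE/Ovx rat below every NE/Ovx rat for Retn (exact permutation p = 0.1 for each, adjusted p of 0.21). In CPM, Rbp4 was higher in every NE/Ovx rat than in every Sham rat. The nearest rats for relative Retn were at -0.644 (RE/Ovx rat 3) and -0.623 (NE/Ovx rat 6). The share of all genes without overlap on this scale was not counted.

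**Figure D3:**
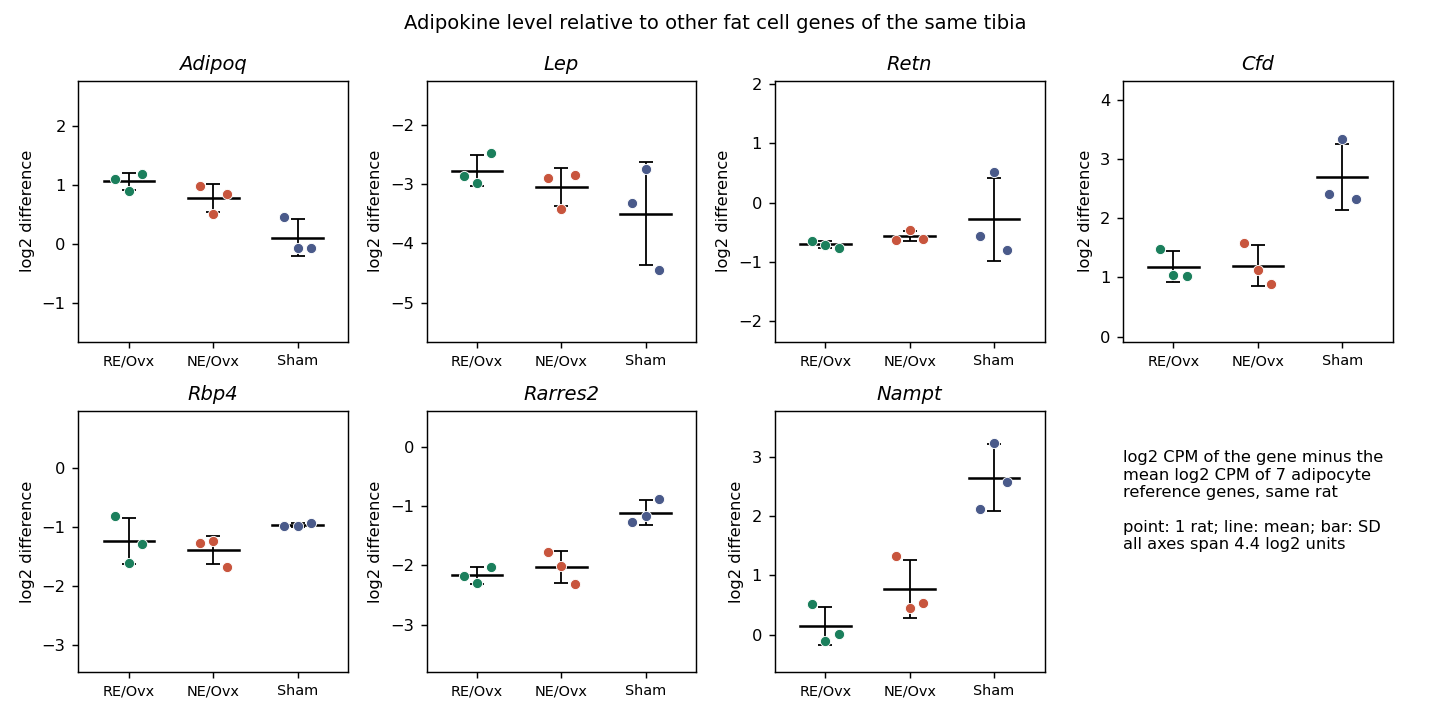
log2 CPM of each adipokine gene minus the mean log2 CPM of 7 fat cell genes of the same rat (vertical axes, all of the same span), for RE/Ovx, NE/Ovx and Sham rats from left to right, with rats as points, means as lines and SD as bars. Cfd, Rarres2 and Nampt are lower in all ovariectomized rats than in all Sham rats, while Adipoq is higher and Lep and Retn overlap. The fat cell genes are themselves higher in all ovariectomized rats, so a gene with an unchanged level lies lower there.

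Genes that control fat cells and their lipids showed a mixed picture. Of 15 such genes, 3 rose in NE/Ovx against Sham and none fell, against 1.03% and 0.2% of all genes. In RE/Ovx against Sham 7 rose and 1 fell, against 5% and 3.06% of all genes. The median log2 fold changes were 0.14 and 0.69. Thrsp, which promotes lipid synthesis, was at 61.8, 35.7 and 46.1 CPM in RE/Ovx, 22.1, 28.2 and 29.3 CPM in NE/Ovx and 8.04, 2.66 and 2.83 CPM in Sham rats. Its log2 fold change was 2.53 for NE/Ovx against Sham (adjusted p = 0.0235) and 3.38 for RE/Ovx against Sham (adjusted p = 0.00382). Pck1, which makes the glycerol part of stored fat, and Adrb3, the receptor through which adrenaline releases it, rose in NE/Ovx rats by 2.68 (adjusted p = 0.0240) and 1.87 (adjusted p = 0.0412). Pparg, the master regulator of fat cell differentiation, was at 21.6, 21.9 and 21.5 CPM in RE/Ovx, 15.0, 14.9 and 18.4 CPM in NE/Ovx and 11.6, 9.51 and 8.91 CPM in Sham rats. It rose in RE/Ovx against Sham (log2 fold change 1.11, adjusted p = 0.00622) and had 0.68 in NE/Ovx against Sham (adjusted p = 0.0510). Cebpb, the gene that fell in RE/Ovx against Sham, stood at -0.59 on the log2 scale (adjusted p = 0.0340) and encodes an early differentiation factor that myeloid cells also use.

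No receptor of the adipokines passed the test. Of 11 receptor genes 8 were tested, and 0 of 8 passed in any of the 3 comparisons, with medians of -0.11, -0.07 and -0.11 for NE/Ovx against Sham, RE/Ovx against NE/Ovx and RE/Ovx against Sham. At unadjusted p under 0.05 in edgeR, 2 of 8 passed in NE/Ovx against Sham. Cmklr1 was higher, against 11.9% of all genes, and Cap1 lower, against 8.57%. In RE/Ovx against NE/Ovx 0 of 8 passed at that p, against 767 of all 14520 genes. For RE/Ovx against Sham it was 3 of 8, against 3710. DESeq2 called 0, 0 and 2 of the 8 in the 3 comparisons, against 998, 5 and 1964 of all genes. Cmklr1, the chemerin receptor, was at 11.6, 15.1 and 18.4 CPM in RE/Ovx, 14.7, 14.4 and 18.5 CPM in NE/Ovx and 8.32, 8.46 and 12.7 CPM in Sham rats (log2 fold change 0.70 for NE/Ovx against Sham, adjusted p = 0.125). Cap1, an actin-binding protein that also binds resistin in human monocytes, was at 399, 314 and 389 CPM in RE/Ovx, 401, 363 and 391 CPM in NE/Ovx and 538, 503 and 422 CPM in Sham rats (-0.34 for NE/Ovx against Sham, adjusted p = 0.163). The adiponectin receptors Adipor1 and Adipor2 had -0.09 and -0.15, and the leptin receptor Lepr, a marker of marrow stroma, had -0.49 (adjusted p = 0.315).

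Downstream of these receptors, 16 genes of adiponectin assembly and of adipokine signalling had a median log2 fold change of -0.02 in NE/Ovx against Sham. There 0 passed in edgeR. At unadjusted p under 0.05 it was 5, against 2975 of all 14520 genes, and by DESeq2 3, against 998. In RE/Ovx against Sham the median was -0.14, and 1 rose and 2 fell, against 5% and 3.06% of all genes. Irs1, an adaptor of insulin signalling, rose in RE/Ovx rats by 0.89 (adjusted p = 0.0113), with 53.0, 67.1 and 72.5 CPM in RE/Ovx, 51.3, 60.9 and 47.9 CPM in NE/Ovx and 37.5, 34.1 and 32.6 CPM in Sham rats. Prkaa1, a catalytic subunit of the kinase AMPK that adiponectin activates, had a log2 fold change of -0.43 in RE/Ovx against Sham (adjusted p = 0.0193). Jak2, the kinase bound to the leptin receptor, had -0.32 (adjusted p = 0.0368). Blood cells express both of them as well.

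The resistin family split. Retnlg, a relative of Retn that marrow myeloid cells make, was at 103, 85.4 and 112 CPM in RE/Ovx, 138, 126 and 93.8 CPM in NE/Ovx and 193, 137 and 153 CPM in Sham rats. All RE/Ovx rats were below all Sham rats, with a log2 fold change of -0.68 for RE/Ovx against Sham (SE 0.17, adjusted p = 0.0388) and of -0.44 for NE/Ovx against Sham (adjusted p = 0.188). Retn and Retnlg thus moved in opposite directions in RE/Ovx against Sham, and the other family members Retnla and Retnlb were not tested. Neutrophil markers moved with Retnlg: of 13, all 12 tested had estimates below 0 in both comparisons with Sham. Of all 14520 genes, 7196 and 7413 were below 0 in NE/Ovx and RE/Ovx against Sham. Ltf, the marker not tested, had 19, 30 and 8 counts over the RE/Ovx, NE/Ovx and Sham rats. In NE/Ovx against Sham 0 of the 12 passed in edgeR, and DESeq2 called 5, against 998 of all genes. In RE/Ovx against Sham 6 of the 12 fell, against 3.06% of all genes. The summed level of these markers was 4543 to 6785 CPM in RE/Ovx, 6140 to 6994 CPM in NE/Ovx and 7994 to 13161 CPM in Sham rats. Their part in the Retnlg values was not tested.

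Among 31 other secreted factors of fat, 24 were tested. In NE/Ovx against Sham 2 rose and none fell, against 1.03% and 0.2% of all genes. In RE/Ovx against Sham 5 rose and 1 fell, against 5% and 3.06%. The medians of these factors were 0.43 and 0.72. Agt, angiotensinogen, was at 9.89, 8.18 and 8.74 CPM in RE/Ovx, 4.85, 5.60 and 8.48 CPM in NE/Ovx and 2.34, 0.967 and 0.750 CPM in Sham rats, with a log2 fold change of 2.19 for NE/Ovx against Sham (adjusted p = 0.0323) and 2.69 for RE/Ovx against Sham (adjusted p = 0.00907). C1qtnf1, a paralog of adiponectin, was at 38.2, 47.2 and 41.8 CPM in RE/Ovx, 33.4, 32.6 and 36.6 CPM in NE/Ovx and 21.0, 16.04 and 15.6 CPM in Sham rats. Its log2 fold change was 0.96 for NE/Ovx against Sham (adjusted p = 0.0213) and 1.27 for RE/Ovx against Sham (adjusted p = 0.00331), and the 3 groups did not overlap. Metrnl, a secreted factor of muscle and fat, had 0.74 in NE/Ovx against Sham (adjusted p = 0.0654) and rose by 0.64 in RE/Ovx against Sham (adjusted p = 0.0480). Hp, haptoglobin, which fat, liver and neutrophils make, was the factor that fell, at 132, 98.6 and 137 CPM in RE/Ovx, 148, 142 and 147 CPM in NE/Ovx and 245, 200 and 182 CPM in Sham rats (log2 fold change -0.77 for RE/Ovx against Sham, adjusted p = 0.0157).

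Genes of the pathways that Cfd, Rbp4 and Nampt serve were counted in the same way. Of 9 tested genes of the alternative complement pathway, 0 passed in NE/Ovx against Sham in edgeR (0 also at unadjusted p under 0.05 and by DESeq2) and 2 fell in RE/Ovx against Sham, against 3.06% of all genes, with medians of -0.22 and -0.14. C3, the central complement protein, was at 287, 248 and 327 CPM in RE/Ovx, 364, 402 and 358 CPM in NE/Ovx and 505, 451 and 376 CPM in Sham rats (-0.63 for RE/Ovx against Sham, adjusted p = 0.0242). C5ar1, a receptor of myeloid cells for a complement fragment, had -0.60 (adjusted p = 0.0372), while Cfd rose in the same comparison. Of 13 tested genes of retinoid transport and action, 0 passed in any comparison in edgeR, and the medians were 0.22 for NE/Ovx against Sham and 0.32 for RE/Ovx against Sham. At unadjusted p under 0.05, 3, 0 and 4 of them passed in NE/Ovx against Sham, RE/Ovx against NE/Ovx and RE/Ovx against Sham. DESeq2 called 0, 0 and 2 of them. Of all 14520 genes, 2975, 767 and 3710 passed at that p, and DESeq2 called 998, 5 and 1964. Rarb, a retinoic acid receptor, had a log2 fold change of 0.97 in NE/Ovx against Sham (adjusted p = 0.201). Of 18 genes of NAD salvage and use, 0 passed in NE/Ovx against Sham in edgeR. At unadjusted p under 0.05 it was 7, against 2975 of all 14520 genes, and by DESeq2 2, against 998. Only Nadk, the NAD kinase, passed in RE/Ovx against Sham, where it fell by 0.44 on the log2 scale (adjusted p = 0.0294). Of all genes 3.06% were called lower there. Ttr, the blood partner of Rbp4 made by liver, had 2 counts over all 9 rats.

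**Figure D4:**
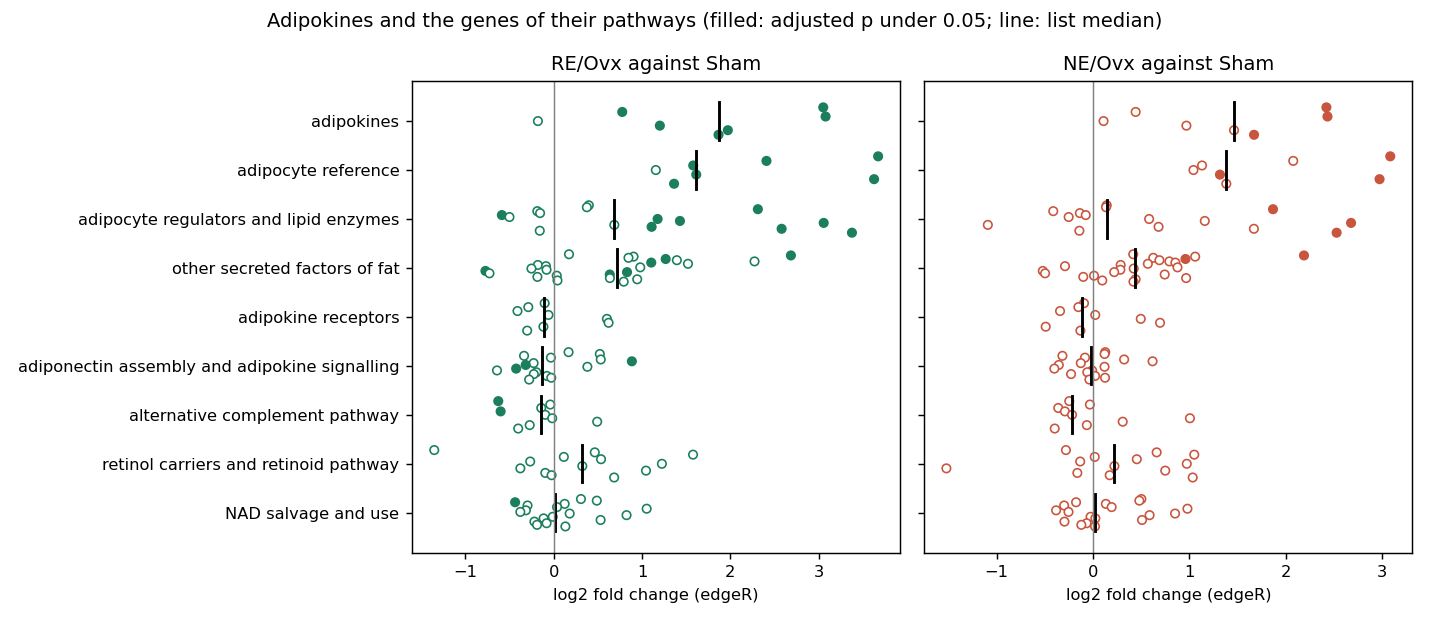
log2 fold change from edgeR (horizontal axis) of the adipokine genes and of the genes of 8 related lists, for RE/Ovx against Sham (left) and NE/Ovx against Sham (right). Points are genes, filled where the adjusted p is under 0.05, and lines are list medians, which are 1.87 and 1.46 for the adipokines, 1.61 and 1.38 for the fat cell reference genes and -0.11 and -0.11 for the receptors.

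The genes most like each adipokine gene were sought among 13093 genes, by the root mean square difference of log2 CPM centred on the mean of the 9 rats. The level was thus left out, but the values were not scaled, so the size of the differences between rats counts as well. For Adipoq they were Tusc5 (0.33), which moves a glucose transporter in fat cells, Thrsp (0.33) and Pck1 (0.36). For Lep they were Agt (0.33), Gys2, a glycogen synthase (0.34), and Adipoq (0.43). Retn was closest to Aifm2 (0.16), which protects membranes from lipid oxidation, Bglap, osteocalcin of osteoblasts (0.18), and Serpinf1, a secreted factor of bone and fat (0.25). Rarres2 was closest to Car3, a carbonic anhydrase abundant in fat and muscle (0.10), Hmgcll1 (0.17) and Pcdhb19 (0.18). Cfd was closest to Phgdh, the first enzyme of serine synthesis (0.11), Hey2 (0.14) and Rras2 (0.15), and Rbp4 to Calml3 (0.21), Abcd2 (0.31) and Hapln3 (0.33). Nampt was closest to Sdhc, a subunit of succinate dehydrogenase (0.10), Psap (0.10) and Tapbp (0.11). Between the adipokine genes themselves, Rbp4 and Rarres2 were most alike (0.39) and Adipoq and Nampt least (1.53). These values describe the 9 rats and share their libraries and group differences.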

How the data were processed

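The authors deposited 2 tables for each rat, raw counts of reads by gene and FPKM by gene. They were made, by the submitters' processing notes, on the build Rnor_6.0 with HISAT2, StringTie, Bowtie2, Trimmomatic and DESeq. Versions, and whether the strand was used in counting, are not given in the sources used here. Among genes with many counts in every rat, FPKM per count differed between rats by the same proportion (relative spread at most 2.1e-10). Both units thus hold the same measurement for these genes. Genes with few counts in any rat, Lep, Rbp4 and Rarres2 among them, were not in this check.

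Groups were taken from the sample titles. Counts were tested with edgeR 4.0.16 in R 4.3.3 (low-count filter, TMM factors of 0.962 to 1.04, quasi-likelihood test) in 1 fit of 9 rats, which was tested on simulated data. Levels relative to fat cell genes used log2 CPM with a prior count of 2 and exact permutation tests in scipy 1.17.1. Alternatives were DESeq2 1.42.0, no filter, a minimum of 10 counts in every library, library totals, median-of-ratios factors, edgeR on the 2 groups compared, limma 3.58.1 on log2(FPKM + 1) or log2(FPKM + 0.1) with or without at least 1 FPKM in 3 libraries, and leaving out each rat. Read counts without molecular identifiers are not independent molecules.

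The members, lists and tests were chosen with earlier results of these data known. Named are all 7 members, up to 4 called genes of each list with the smallest p (or 2 where none was called), and the 3 genes most like each member among those with an average log2 CPM of at least 1. For 1 gene that this rule names, the result is not reported here. Adipor1, Adipor2, Lepr, Cebpb, Ttr, Ltf, Col1a1, Ibsp, Ttn and the brown fat and liver genes (Prdm16, Cidea, Cox8b, Ppargc1a, Dio2, Ucp1, Elovl3, Fga, Fgb, Serpina1 and Apoa1) were named after their values were seen. Motif letters were searched in RefSeq promoters of GRCr8.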

Additional observations from a re-analysis of the deposited data

How the results depend on the processing

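The count of adipokine genes called in NE/Ovx against Sham was 3 (178 of all genes), and it was 5 with DESeq2 (998 of all genes), 1 with edgeR on the 2 groups alone (152), 1 with limma on log2(FPKM + 1) (25), and between 0 and 3 when each rat was left out. In RE/Ovx against NE/Ovx the count was 0 under each of these alternatives. In RE/Ovx against Sham it was 6 (1171 of all genes), 4 with edgeR on the 2 groups alone (559), 5 with limma on log2(FPKM + 1) (465) and with at least 10 counts in each library (1117), and between 3 and 6 when each rat was left out. The log2 fold changes of Adipoq, Retn, Cfd, Rbp4 and Rarres2 kept their direction in all 3 comparisons under every alternative, as did that of Lep wherever it could be tested (it was not kept by the filter of at least 10 counts in each library). The estimate for Nampt in NE/Ovx against Sham lay between -0.045 and 0.23 when each rat was left out. Moving to library totals shifted the median of all genes by at most 0.061.

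Relative to Plin1 alone in place of 7 fat cell genes, the differences for NE/Ovx against Sham, RE/Ovx against NE/Ovx and RE/Ovx against Sham were -0.31, -0.020 and -0.33 for Adipoq and -0.53, -0.024 and -0.55 for Lep, and that of Rbp4 for RE/Ovx against NE/Ovx was -0.15. These signs were opposite to those with 7 genes. Against Sham, Plin1 rose more than Adipoq and Lep did, whereas the median of the 7 genes rose less, and why was not tested. Leaving out each rat moved some small relative differences across 0: Lep in NE/Ovx against Sham between -0.019 (without Sham rat 12) and 0.84, Retn in NE/Ovx against Sham between -0.54 and 0.11 (without Sham rat 8), Rbp4 in RE/Ovx against NE/Ovx between -0.059 (without RE/Ovx rat 3) and 0.33, and Cfd in RE/Ovx against NE/Ovx between -0.17 and 0.18 (without NE/Ovx rat 6). No paired analysis was done, because the groups hold different rats and the labels do not match rats across groups. With 3 to 19 counts of Lep in Sham rats, depth limits the precision of its fold change.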

Other observations

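Genes of thermogenic fat were also looked at. Of 8 such genes 5 were tested, and in RE/Ovx against Sham 2 rose and 0 fell, against 5% and 3.06% of all genes. Prdm16, a regulator of the brown fat programme, had a log2 fold change of 1.68 (SE 0.35, adjusted p = 0.0219 from edgeR), and Cidea, a fat droplet protein, one of 2.76 (SE 0.63, adjusted p = 0.0306) from 104 counts over the RE/Ovx rats and 14 counts over the Sham rats. In NE/Ovx against Sham neither passed, at 0.69 for Prdm16 (adjusted p = 0.307) and 2.19 for Cidea (adjusted p = 0.111). Cox8b, Ppargc1a and Dio2 had -1.14, -0.24 and 0.32 in RE/Ovx against Sham and did not pass. Ucp1 had no count in any of the 9 rats.

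Of 9 osteoblast genes, 3 rose in NE/Ovx against Sham and 3 in RE/Ovx against Sham, against 1.03% and 5% of all genes. The medians were 0.61 and 0.87 on the log2 scale. The summed level of the osteoblast genes was 19943 to 32267 CPM in RE/Ovx, 18074 to 29534 CPM in NE/Ovx and 7585 to 10615 CPM in Sham rats. Most of this sum is Col1a1, with 857161, 870271 and 231777 counts over the RE/Ovx, NE/Ovx and Sham rats. Ibsp had 23805, 24940 and 24721 counts. All 8 B cell genes had estimates above 0 in both comparisons with Sham, with medians of 1.14 and 1.21 for NE/Ovx and RE/Ovx against Sham. Of all 14520 genes, 7324 and 7107 were above 0. In edgeR 0 and 2 of the 8 B cell genes were called higher, against 1.03% and 5% of all genes. Their part in the adipokine values was not tested.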
